A study of Mus musculus with 6 samples.

Results

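The lysosome is the acidic compartment in which a cell breaks down proteins, sugars, lipids and nucleic acids. Its soluble hydrolases are made in the endoplasmic reticulum, tagged with mannose 6-phosphate and delivered by sorting receptors, while heavily glycosylated membrane proteins line and protect the limiting membrane. In T cells the compartment degrades internalised receptors and autophagic cargo and supplies amino acids to the growth-promoting kinase mTORC1, and many of its genes are known targets of the transcription factor TFEB and its relatives. The genes described here are 30 genes of lysosomal enzymes and membrane proteins, chosen by name, out of 35602 genes in the count table. They comprise 6 membrane proteins, 10 proteases, 8 glycosidases, 4 hydrolases of lipids or thioesters and 2 soluble cofactors, and all 30 were listed in both kinds of table and passed the filter on low counts, which 16269 genes passed.

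CD4+ T cells from mouse spleen were stimulated through CD3 and CD28 and treated with MAPK13-inhibitors (the compound MAPK13-IN-1) or with the solvent DMSO. The paper gives the aim of this RNA-seq as learning how such cells keep stem cell-like properties. Each group has 3 libraries of messenger RNA. The cells of replicates 2 and 3 are labelled WT, their inhibitor dose was 17.1 µM, and their labels place its addition after the first day of culture, whereas the series as a whole is described as 72 h of stimulation with the inhibitor present. Replicates 2 and 3 were deposited as raw counts (26874805 and 28487403 counts in the DMSO libraries, 33854760 and 32617702 in the inhibitor libraries), and the replicate 1 pair, made with another library kit, as values read here as FPKM, with unknown depth. No label says that the libraries of a group came from separate mice or cultures, so the p-values measure the spread between these libraries, which may be technical. *Mapk13* itself, whose protein and not its mRNA is the inhibitor's target, was counted 79 and 74 times with DMSO against 21 and 51 times with the inhibitor, and went from 0.191 to 3.28 FPKM in the replicate 1 pair.

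Most of the 30 genes were higher with the inhibitor. By edgeR's quasi-likelihood test, adjusted by Benjamini-Hochberg over all genes tested, 20 of the 30 had an adjusted p under 0.05 and a higher level, which is 66.7% beside 31.5% of all genes tested. Another 3 were lower, or 10% beside 32.3% of all genes, and 7 did not pass. Counting both directions, 76.7% of the lysosomal genes and 63.8% of all genes changed, so the lysosomal genes differed from the rest less in how often they changed than in which direction. Their median log2 fold change was 0.49, beside 0.01 over all genes tested, whose quartiles were -0.49 and 0.55. Among the changes of at least 1.5-fold, 11 lysosomal genes were higher, or 36.7% beside 20.3% of all genes, and 1 was lower, beside 19.6% of all genes. The groups did not overlap in 24 of the 30 genes, or 80%, which is near the 83% seen over all genes. Summed over the 30 genes, the level was 2681 and 2649 CPM (counts scaled to library size, with TMM factors) in the DMSO libraries and 3812 and 3714 CPM in the inhibitor libraries. The same sum in the replicate 1 pair was 748.9 FPKM for DMSO against 1258 FPKM for the inhibitor. From bulk RNA, fewer cells of a type and less RNA per cell cannot be told apart.

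**Figure D1:**
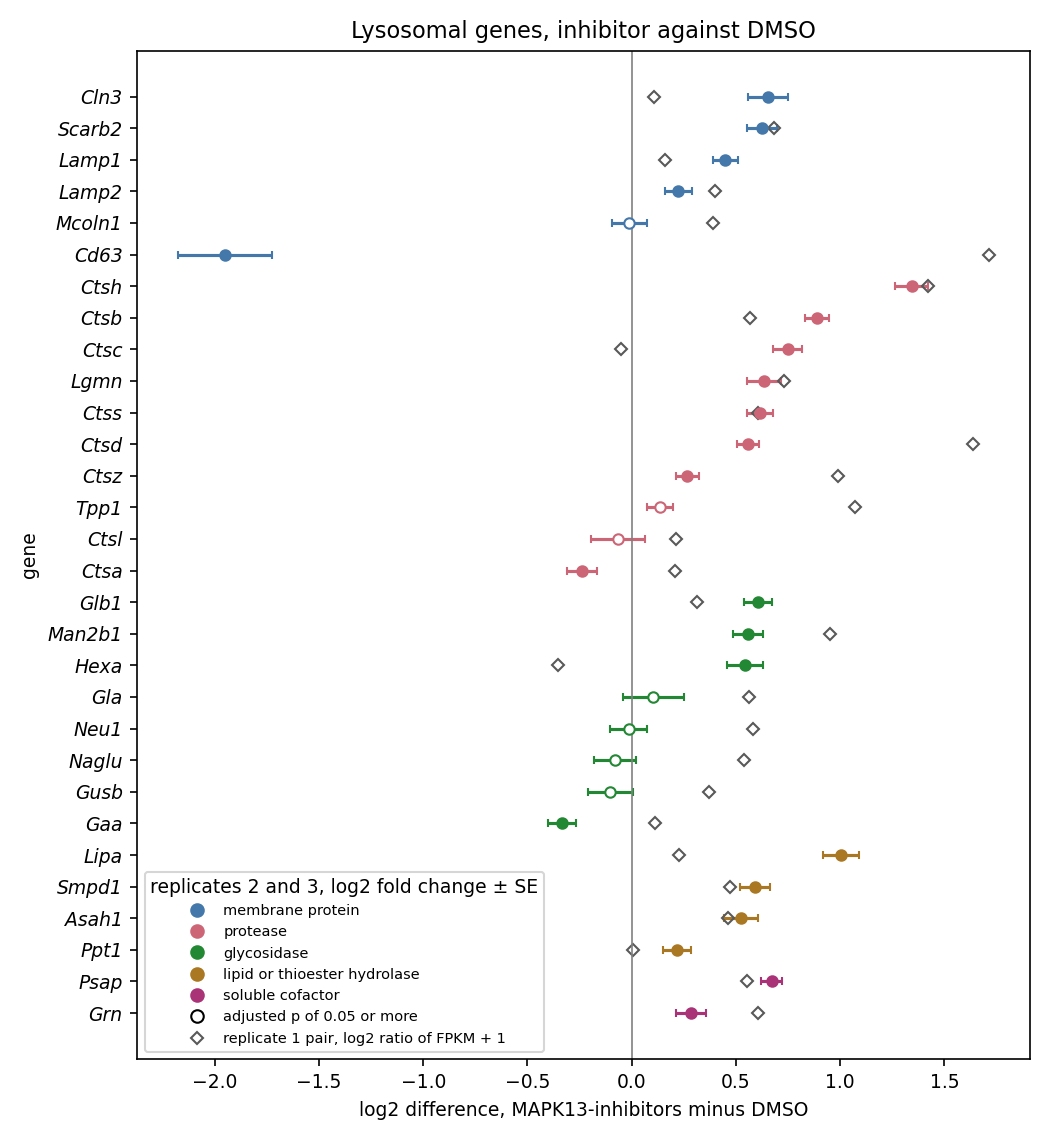
Log2 difference between MAPK13-inhibitors and DMSO (horizontal axis) for each of the 30 lysosomal genes (vertical axis). Circles with bars are log2 fold changes ± SE from replicates 2 and 3, filled where the adjusted p was under 0.05, and diamonds are log2 ratios of FPKM + 1 in the replicate 1 pair, so that *Cd63* sits far to the left as a circle and to the right as a diamond, and *Ctsh* lies to the right in both.

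The levels of these genes spanned a wide range before any treatment effect. Divided by the length of the annotated exons, the DMSO level was highest for the protease gene *Ctsz* at 224 ± 2.81 CPM per kb (SD, n = 2). It was followed by the saposin precursor *Psap* at 174 ± 1.89, the aspartic protease *Ctsd* at 108 ± 2.11, the membrane protein *Lamp1* at 77.5 ± 0.330 and the cysteine protease *Ctss* at 60.3 ± 0.872 CPM per kb (SD, n = 2 each). Neighbours in this order differed by far more than their spread. The lowest levels were those of *Gla* at 3.23 ± 0.628, *Ctsl* at 2.45 ± 0.388 and *Cd63* at 1.90 ± 0.153 CPM per kb (SD, n = 2 each), and *Gla* and *Ctsl* differed by little more than their SDs. The DMSO library of the replicate 1 pair had the same leading genes in the same order down to *Lamp1*, with 118.6 FPKM for *Ctsz*, 90.4 for *Psap*, 79.7 for *Ctsd* and 74.1 for *Lamp1*. Further down the orders differed, with *Lamp2* at rank 22 by CPM per kb and at rank 9 in the pair. The lowest gene in the pair was *Ctsl*, with *Ctsh* and *Cd63* next above it.

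Of the 6 membrane protein genes, 4 were higher (*Lamp1*, *Lamp2*, *Scarb2* and *Cln3*), *Cd63* was lower and *Mcoln1* did not pass. The share higher was 66.7%, beside 31.5% of all genes tested, and the share lower 16.7%, beside 32.3%. *Lamp1* and *Lamp2* encode the most abundant glycoproteins of the lysosomal membrane. *Lamp1* (chr8:13159161-13175338, + strand, GRCm38) was measured at 206.6 and 207.8 CPM in DMSO replicates 2 and 3 and at 294.7 and 271.3 CPM in the inhibitor libraries. The groups were well apart, and its log2 fold change was 0.45 ± 0.058 (SE, n = 2 per group). *Lamp2* (chrX:38401357-38456454, − strand), whose product also serves chaperone-mediated autophagy, stood at 73.8 and 69.5 CPM with DMSO and at 84.6 and 82.7 CPM with the inhibitor. Its libraries did not overlap but its change was small, at 0.22 ± 0.066 on the log2 scale (SE, n = 2 per group). Its call was lost when either DMSO library was left out, with an adjusted p of 0.059 without replicate 2 and 0.214 without replicate 3 in edgeR's quasi-likelihood test, Benjamini-Hochberg adjusted (range over the alternatives 0.000456 to 0.214). For the replicate 1 pair, *Lamp1* went from 74.1 to 82.9 FPKM and *Lamp2* from 25.3 to 33.7 FPKM.

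*Cln3* (chr7:126571207-126585817, − strand), a multispanning membrane protein lost in a juvenile neuronal storage disease, had 31.1 and 34.6 CPM in the DMSO libraries and 55.7 and 47.8 CPM in the inhibitor libraries. The groups did not overlap although each was spread by several CPM, and the log2 fold change was 0.66 ± 0.096 (SE, n = 2 per group). *Cln3* was nearly level in the replicate 1 pair, at 13.3 against 14.4 FPKM. *Scarb2* encodes LIMP-2, which carries beta-glucocerebrosidase to lysosomes, and it rose by 0.63 ± 0.073 on the log2 scale (SE, n = 2 per group). It was also higher with the inhibitor in the replicate 1 pair, at 9.82 against 16.4 FPKM. *Mcoln1*, the calcium channel TRPML1, had 38.9 and 36.9 CPM with DMSO and 39.4 and 35.8 CPM with the inhibitor. Its groups overlapped in full, and its log2 fold change was -0.012 ± 0.085 (SE, n = 2 per group), whose sign turned with the scaling.

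*Cd63* (chr10:128900989-128912822, + strand), a tetraspanin of late endosomes, lysosomes and secretory granules, went against the 4 membrane protein genes that were higher. It was counted 170 and 201 times with DMSO against 50 and 75 times with the inhibitor, or 6.59 and 7.39 CPM against 1.41 and 2.21 CPM. Both inhibitor libraries lay far below both DMSO libraries, a 3.87-fold fall with a log2 fold change of -1.95 ± 0.23 (SE, n = 2 per group, adjusted p = 3.19e-05, edgeR's quasi-likelihood test, Benjamini-Hochberg adjusted). *Cd63* moved the other way in the replicate 1 pair, from 3.21 FPKM for DMSO to 12.8 FPKM for the inhibitor. Its log2 ratio of 1.71 there was the largest among the 30 genes.

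Of the 10 protease genes, 7 were higher, or 70% beside 31.5% of all genes tested. Another 1 was lower, or 10% beside 32.3% of all genes, and 2 did not pass. The median log2 fold change of the 10 was 0.59. *Ctsh* (chr9:90054152-90076089, + strand), a cysteine cathepsin with aminopeptidase activity, had 25.2 and 23.6 CPM with DMSO and 61.3 and 62.5 CPM with the inhibitor (means 24.4 ± 1.11 and 61.9 ± 0.866, SD, n = 2 per group). The inhibitor libraries lay 2.54-fold above the DMSO libraries with hardly any spread (log2 fold change 1.34 ± 0.079, SE, n = 2 per group, adjusted p = 3.22e-07, edgeR's quasi-likelihood test, Benjamini-Hochberg adjusted). This was the largest rise of the 30 genes, and the replicate 1 pair showed one of like size, from 2.66 to 8.80 FPKM.

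*Ctsb* (chr14:63122462-63145923, + strand), an abundant endopeptidase that also trims dipeptides from protein ends, had 232.7 and 235.9 CPM with DMSO and 454.3 and 413.4 CPM with the inhibitor. The groups were far apart, at a log2 fold change of 0.89 ± 0.059 (SE, n = 2 per group). *Ctsc* (chr7:88278085-88310888, + strand), the dipeptidyl peptidase that activates granzymes and other serine proteases, had 82.5 and 78.0 CPM with DMSO and 142 and 127.7 CPM with the inhibitor. It rose by 0.75 ± 0.071 on the log2 scale (SE, n = 2 per group). *Ctsb* in the replicate 1 pair was again higher, at 40.6 against 60.7 FPKM, while *Ctsc* was flat, at 9.47 and 9.09 FPKM.

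*Ctsd* (chr7:142375911-142388038, − strand), the main aspartic protease of lysosomes, had 250.9 and 257.9 CPM with DMSO and 382 and 366.1 CPM with the inhibitor, a log2 fold change of 0.56 ± 0.053 (SE, n = 2 per group). In the replicate 1 pair it was 3.14 times as high with the inhibitor, at 79.7 and 250 FPKM, so that the direction was shared and the size was not. *Ctss*, an elastinolytic cathepsin that processes invariant chain in antigen-presenting cells, rose by 0.61 ± 0.063, and *Lgmn*, which cleaves after asparagine and matures other cathepsins, rose by 0.64 ± 0.081 (log2 fold changes, SE, n = 2 per group). *Ctsz*, a carboxypeptidase, rose less in the counts, by 0.27 ± 0.055, than in the replicate 1 pair, where it went from 118.6 to 236.3 FPKM. *Tpp1*, a tripeptidyl peptidase, had 105.6 and 101.1 CPM with DMSO and 110.7 and 116.1 CPM with the inhibitor. These groups did not overlap, yet the test was not passed (log2 fold change 0.13 ± 0.062, SE, n = 2 per group, adjusted p = 0.0799, edgeR's quasi-likelihood test, Benjamini-Hochberg adjusted, range over the alternatives 0.00374 to 0.496). Its FPKM in the replicate 1 pair was 2.15 times as high with the inhibitor.

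*Ctsl*, the endopeptidase cathepsin L, had 17.7 and 14.1 CPM with DMSO and 14.4 and 15.9 CPM with the inhibitor, and its groups overlapped. *Ctsa* (chr2:164832873-164841032, + strand), a carboxypeptidase that also shields beta-galactosidase and neuraminidase from degradation, was the protease with a lower level. It had 79.4 and 77.0 CPM with DMSO and 63.3 and 69.2 CPM with the inhibitor, and the groups did not overlap. Its log2 fold change of -0.24 ± 0.070 (SE, n = 2 per group) had an adjusted p of 0.0124 in edgeR's quasi-likelihood test, Benjamini-Hochberg adjusted. That call was lost with scaling by the upper quartile (adjusted p = 0.0666) or by library totals (0.175), and without DMSO replicate 2 (0.0917), in edgeR's quasi-likelihood test (Benjamini-Hochberg adjusted), where the alternatives ranged from 5.08e-06 to 0.175. *Ctsa* stood slightly higher with the inhibitor in the replicate 1 pair, at 30.8 against 35.7 FPKM.

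**Figure D2:**
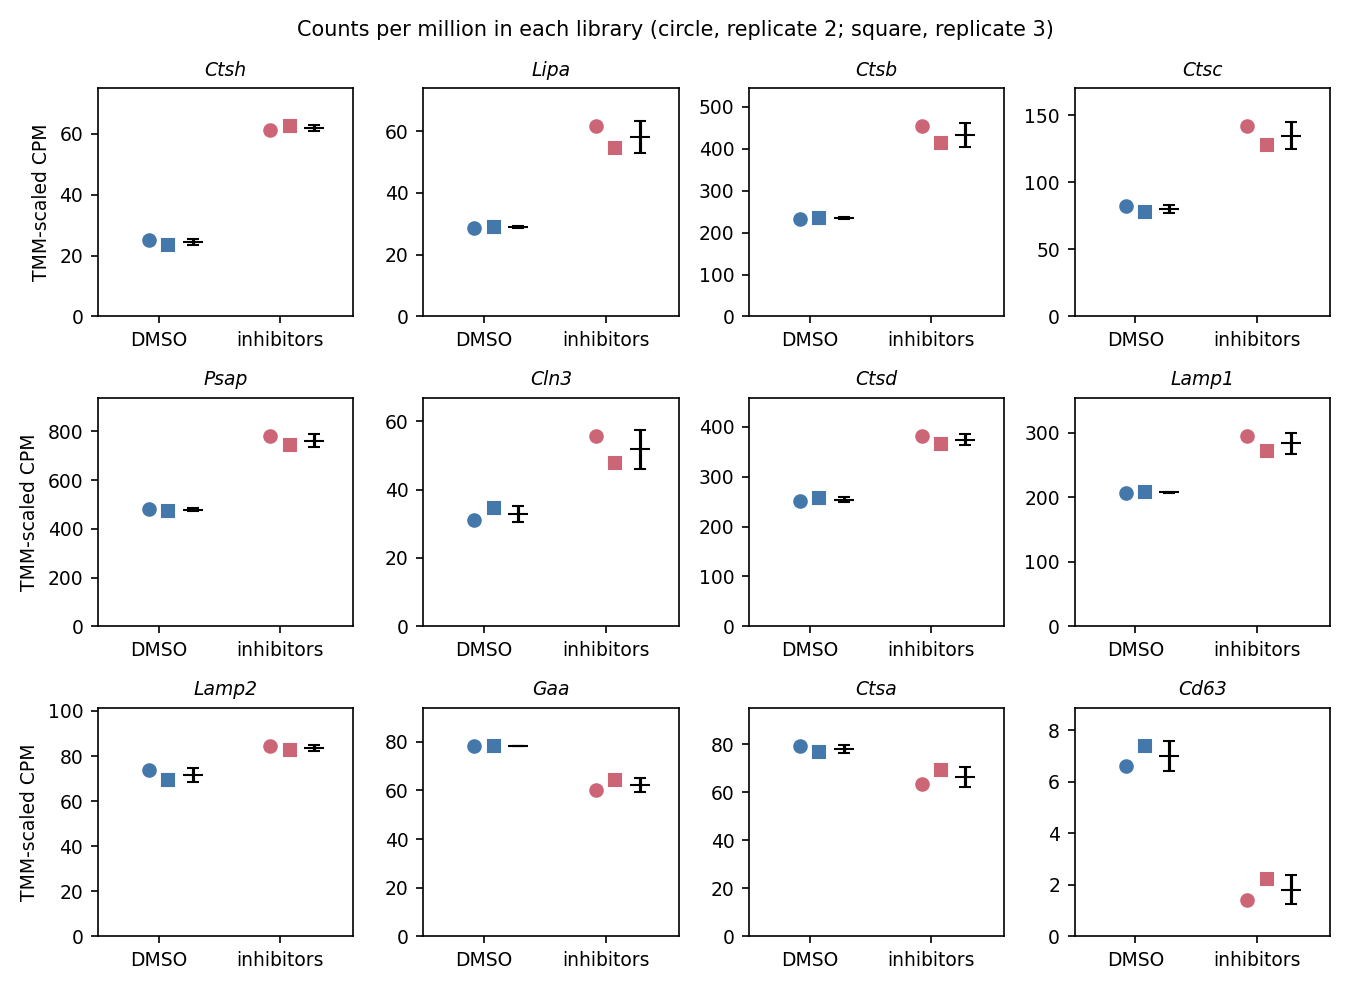
TMM-scaled CPM (vertical axes, from 0) of 12 lysosomal genes in each DMSO and MAPK13-inhibitors library of replicates 2 (circles) and 3 (squares), with the mean ± SD of each group (n = 2) as a bar beside the points. The inhibitor libraries lie above the DMSO libraries in the first 9 panels, from *Ctsh* to *Lamp2*, and below them for *Gaa*, *Ctsa* and *Cd63*.

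Of the 8 glycosidase genes, 3 were higher (*Hexa*, *Glb1* and *Man2b1*), or 37.5%, near the 31.5% of all genes tested. *Gaa* was lower, or 12.5% beside 32.3% of all genes, and 4 did not pass. The median log2 fold change of the 8 was 0.045, close to that of all genes tested. *Glb1*, the lysosomal beta-galactosidase, rose by 0.61 ± 0.068 and *Man2b1*, an alpha-mannosidase of glycoprotein breakdown, by 0.56 ± 0.071 (log2 fold changes, SE, n = 2 per group). Both were also higher in the replicate 1 pair, at 22.3 against 27.9 FPKM for *Glb1* and 23.3 against 46.0 FPKM for *Man2b1*. *Hexa* (chr9:59539540-59565109, + strand), the alpha subunit of beta-hexosaminidase, had 30.1 and 29.0 CPM with DMSO and 45.4 and 40.6 CPM with the inhibitor. The groups were apart, at a log2 fold change of 0.54 ± 0.088 (SE, n = 2 per group). The replicate 1 pair showed the opposite order for *Hexa*, 13.4 FPKM for DMSO against 10.3 FPKM for the inhibitor.

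*Gaa* (chr11:119267887-119285454, + strand), the acid alpha-glucosidase that degrades lysosomal glycogen, had 78.4 CPM in each DMSO library and 60.1 and 64.3 CPM in the inhibitor libraries. It fell by 0.33 on the log2 scale, with an SE of 0.068 (n = 2 per group). The replicate 1 pair had *Gaa* nearly level, at 11.3 and 12.3 FPKM. The remaining glycosidases were *Gla* (alpha-galactosidase A), *Gusb* (beta-glucuronidase), *Neu1* (the lysosomal sialidase) and *Naglu*, an enzyme of heparan sulfate breakdown. Their log2 fold changes lay between -0.10 and 0.10 and their groups overlapped. Each of these 4 genes was higher with the inhibitor in the replicate 1 pair, *Gla* at 3.82 against 6.12 FPKM, *Gusb* at 12.5 against 16.4, *Neu1* at 5.95 against 9.40 and *Naglu* at 4.14 against 6.47.

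All 4 genes of lipid and thioester hydrolases were higher in the comparison of replicates 2 and 3, beside 31.5% of all genes tested. *Lipa* (chr19:34492318-34527474, − strand), the acid lipase that frees cholesterol and fatty acids from lipoprotein esters, had 28.7 and 29.1 CPM with DMSO and 61.6 and 54.4 CPM with the inhibitor (means 28.9 ± 0.247 and 58.0 ± 5.09, SD, n = 2 per group). The inhibitor libraries lay 2.01-fold above the DMSO libraries, and the larger spread was among the former (log2 fold change 1.01 ± 0.086, SE, n = 2 per group, adjusted p = 3.7e-06, edgeR's quasi-likelihood test, Benjamini-Hochberg adjusted). *Lipa* differed less in the replicate 1 pair, at 7.34 and 8.76 FPKM. *Smpd1*, the acid sphingomyelinase, rose by 0.59 ± 0.071 and *Asah1*, the acid ceramidase that acts on its product, by 0.53 ± 0.082 (log2 fold changes, SE, n = 2 per group). *Ppt1*, which removes palmitate from modified cysteines, rose by 0.22 ± 0.068 and was level in the replicate 1 pair, at 28.4 and 28.5 FPKM. The *Ppt1* call was lost without DMSO replicate 2 (adjusted p = 0.0829) and without DMSO replicate 3 (0.234) in edgeR's quasi-likelihood test, Benjamini-Hochberg adjusted, and the alternatives ranged from 0.000758 to 0.234.

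Both soluble cofactors were higher, beside 31.5% of all genes tested. *Psap* (chr10:60277627-60302597, + strand), the precursor of the saposins that present sphingolipids to their hydrolases, had 482.3 and 475 CPM with DMSO and 781.6 and 742.6 CPM with the inhibitor. It had the highest CPM of the 30 genes in each of these 4 libraries, and the groups were far apart (log2 fold change 0.67 ± 0.050, SE, n = 2 per group). Its replicate 1 pair went from 90.4 to 133.3 FPKM. *Grn*, the precursor of granulins that supports lysosomal function, rose by 0.28 ± 0.072 on the log2 scale (SE, n = 2 per group), a call that was lost without DMSO replicate 3 (adjusted p = 0.12, edgeR's quasi-likelihood test, Benjamini-Hochberg adjusted, range over the alternatives 3.81e-05 to 0.12). *Grn* stood at 19.2 and 29.7 FPKM in the replicate 1 pair, the inhibitor library being the higher.

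The replicate 1 pair has 1 library per group and therefore no test. Of the 30 genes, 28 had a log2 ratio of FPKM + 1 above 0 there, or 93.3% beside 55.6% of 11071 genes with a mean of at least 1 FPKM, and the exceptions were *Hexa* at -0.35 and *Ctsc* at -0.054. The median log2 ratio of the 30 genes was 0.51, beside 0.065 over those 11071 genes. On that scale of FPKM + 1, at least 1.5-fold higher were 10 of the 30, or 33.3% beside 15.9% of all genes, and 0 were at least 1.5-fold lower, beside 7.57% of all genes. Those 10 were *Scarb2*, *Cd63*, *Ctsd*, *Ctsh*, *Ctss*, *Ctsz*, *Lgmn*, *Tpp1*, *Man2b1* and *Grn*, and *Gla*, *Neu1* and *Naglu* also passed 1.5-fold by the ratio of FPKM without the pseudocount. Of the 20 genes called higher in replicates 2 and 3, 18 were above 0 in the pair, or 90% beside 75.3% of all 5010 genes so called and listed there. None of the 3 genes called lower was below 0 in the pair, beside 56.8% of all genes called lower. The sum of the 30 genes was thus higher with the inhibitor in both sets of libraries, whereas the falls of *Cd63*, *Gaa* and *Ctsa* in replicates 2 and 3 had no counterpart in the pair.

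Markers of other cell types moved between the same libraries. The 8 CD4 T cell markers were all detected and summed to 1767 and 1799 CPM with DMSO and 946.1 and 1069 CPM with the inhibitor. Of these, 7 were called lower, and *Cd5* held the most counts. *Cd4* itself did not pass, at 274.7 and 275.7 CPM with DMSO and 267.0 and 283.1 CPM with the inhibitor. In the replicate 1 pair it went from 117.8 to 145.9 FPKM. Transcripts of B cells were abundant in replicates 2 and 3, where the 10 B cell markers analysed summed to 1142 and 1119 CPM with DMSO and 1311 and 1334 CPM with the inhibitor, with 7 called higher, 2 lower, *Pax5* holding the most counts and none at 0. In the replicate 1 pair the B cell markers went the other way, from 52.3 to 36.5 FPKM, beside 1265 and 1127 FPKM for the CD4 T cell markers, while the sum of the 30 lysosomal genes was higher with the inhibitor. The 8 dendritic cell markers, led by *Zbtb46*, summed to 19.2 and 19.5 CPM with DMSO and 59.1 and 49.3 CPM with the inhibitor, with *Cd209a* at 0 in all 4 libraries, and to 3.36 and 14.6 FPKM in the replicate 1 pair. The 4 tested were called higher, among them *Xcr1*, which passed the filter only through the inhibitor libraries, and the other 4 were not tested. The 12 macrophage and monocyte markers, led by *Lyz2* and with *Vsig4* at 0, summed to 2.17 and 2.35 CPM with DMSO and 13.5 and 9.21 CPM with the inhibitor, and went from 0.347 to 2.42 FPKM in the replicate 1 pair. Of the 7 tested 5 were called higher, but *C1qb* and *Marco* passed the filter on low counts only through the inhibitor libraries, and 3 were called higher where at least 10 counts were asked of every library. Erythroid markers, led by *Hbb-bs*, rose from 7.83 and 7.54 to 90.2 and 64.7 CPM, and went from 0.931 to 1.94 FPKM in the pair, with 6 of 7 tested called higher, among them *Slc4a1*, which also passed the filter only through the inhibitor libraries. The methods of the paper name a BioLegend kit for isolating CD4 T cells from spleen, and the series description calls the cells sorted, but a purity of these libraries' cells was not found in the sources used here. The part of these and the other cell types in the rise of *Ctsh*, *Ctss*, *Lipa* and the other lysosomal genes was not tested. The 10 neutrophil markers, led by *Mpo* and with *S100a9* at 0, summed to at most 1.06 CPM in any of the 4 libraries and went from 0.771 to 0.472 FPKM in the pair. *Mpo* was the sole one tested and likewise passed the filter only through the inhibitor libraries. It had 2 counts in each DMSO library and 17 and 16 in the inhibitor libraries. It was called higher by edgeR but not by DESeq2, and was not tested where at least 10 counts were asked of every library. *Cxcr2*, which did not pass the filter, went the other way, at 6 and 14 counts with DMSO and 0 and 3 with the inhibitor. Without a filter on low counts, 1 neutrophil marker was called lower. The 7 CD8 T and NK cell markers, led by *Cd8b1* and with *Klra8* at 0, summed to 13.1 and 13.2 CPM with DMSO and 7.18 and 9.56 CPM with the inhibitor, with 2 of 3 tested called lower (1 with DESeq2), and went from 4.14 to 12.8 FPKM in the pair. A count of 0 allows up to 0.116 CPM in the shallowest library, for counting error alone.

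**Figure D3:**
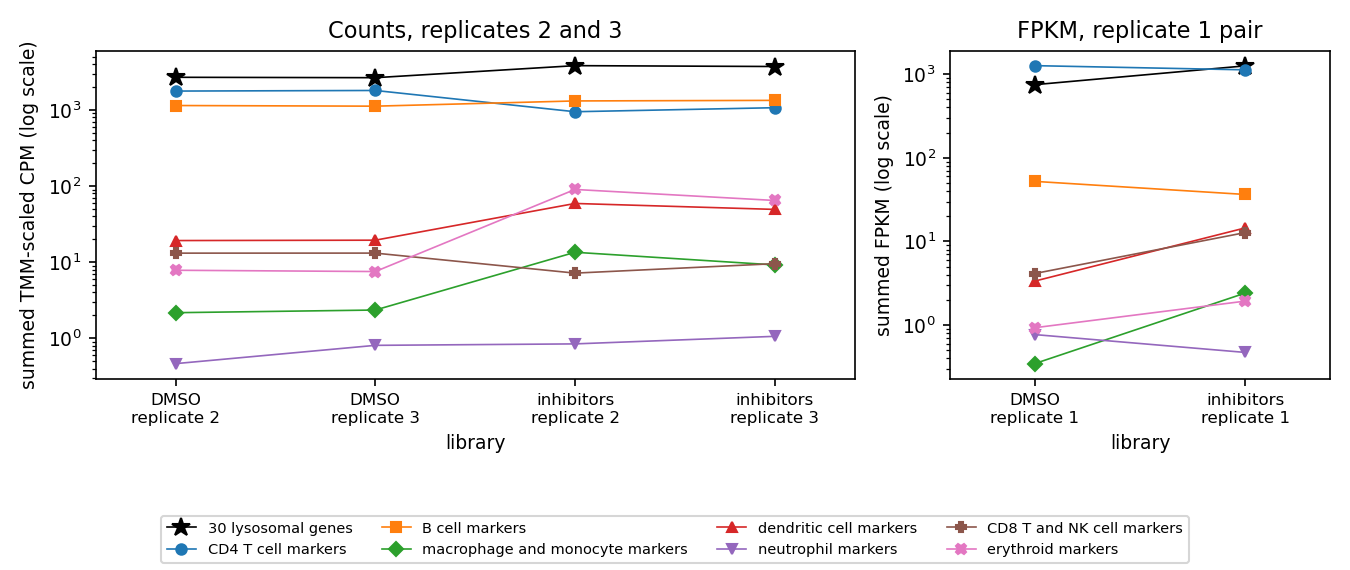
Summed level of the 30 lysosomal genes (stars) and of each list of cell type markers in every library, on log vertical axes, as TMM-scaled CPM for replicates 2 and 3 (left) and as FPKM for the replicate 1 pair (right). The lysosomal genes are higher in each inhibitor library than in the DMSO libraries of the same panel, B cell markers rise from 1142 and 1119 to 1311 and 1334 CPM on the left and fall from 52.3 to 36.5 FPKM on the right, and the scales of the panels cannot be compared.

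Other genes of the lysosome showed how far the pattern of the 30 genes extended. Over 7 further lists, 52 of 106 genes tested were higher, or 49.1% beside 31.5% of all genes, and 28 were lower, or 26.4% beside 32.3%. In the replicate 1 pair, 98 genes of these lists had a log2 ratio of FPKM + 1 above 0 and 11 below, with a median of 0.38 beside 0.51 for the 30 genes. Of all genes with a mean of at least 1 FPKM, 55.6% were above 0 there, with a median of 0.065. That minimum was not asked of the list genes, and some of them lay below it. Of 31 other hydrolases, 14 were higher and 8 lower, with *Prcp*, a carboxypeptidase, at a log2 fold change of 1.05 and *Gm2a*, the activator that works with the product of *Hexa*, at 0.92. Of 19 other membrane proteins, 12 were higher and 4 lower, led by the macrophage-associated glycoprotein gene *Cd68* at 1.44 and the peptide and histidine transporter *Slc15a4* at 1.25. The 18 subunits of the proton pump that acidifies the lumen were divided in replicates 2 and 3, with 6 higher, 5 lower and a median of -0.025, *Atp6v1e1* rising by 0.52 and *Atp6v1g1* having a log2 fold change of -1.11. In the pair, by contrast, 16 of the 18 were above 0, with a median log2 ratio of 0.436. On the scale of FPKM + 1, 6 were at least 1.5-fold higher, or 33.3% beside 15.9% of all genes with a mean of at least 1 FPKM. By the same threshold 1 was lower, beside 7.57% of those genes. The minimum mean was not asked of the 18 subunits, and *Atp6v0e2* lay below it at 0.0459 and 0.117 FPKM. Among 12 genes that sort the enzymes, 6 were higher and 4 lower, and both mannose 6-phosphate receptors rose, *M6pr* by 0.67 and *Igf2r* by 0.63. Of 13 genes of lysosome fusion and positioning, 8 were higher, among them *Vps33a* at 0.83, and 2 lower, among them *Bloc1s1* at -1.08. Of the 4 inhibitors of cathepsins tested, *Cst3* and *Cstb* were higher and *Cst6* and *Cst7* lower, with *Cst3* at 0.80 and *Cst6* at -1.70. The *Cstb* call was marginal (log2 fold change 0.22, n = 2 per group, adjusted p = 0.0492, edgeR's quasi-likelihood test, Benjamini-Hochberg adjusted). *Stfa1*, *Stfa2* and *Stfa3* had 0 counts in all 4 libraries.

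Of 9 genes tested of the TFEB family and its regulators, 4 were higher (*Fnip1*, *Flcn*, *Rragc* and *Rragd*), or 44.4% beside 31.5% of all genes tested. Another 3 were lower (*Tfeb*, *Mitf* and *Zkscan3*), or 33.3% beside 32.3% of all genes, and 2 did not pass. *Tfeb* was counted 843 and 912 times with DMSO against 561 and 503 times with the inhibitor, and fell by 1.11 on the log2 scale. In the replicate 1 pair it went from 5.16 to 4.35 FPKM. *Tfe3* had 1245 and 1291 counts with DMSO and 1524 and 1552 with the inhibitor from deeper libraries, and did not pass (log2 fold change -0.11), and had 12.5 and 13.4 FPKM in the replicate 1 pair. *Mitf*, at 15 to 45 counts, was called lower by edgeR's quasi-likelihood test, Benjamini-Hochberg adjusted (log2 fold change -1.09, n = 2 per group, adjusted p = 0.0452), a call lost under several alternatives, whose adjusted p ranged from 0.00372 to 0.363, and *Tfec* had 0 counts in all 4 libraries. With a library left out, the log2 fold change of *Mitf* ran from -1.62 to -0.62. *Fnip1*, a partner of folliculin in the nutrient signalling that holds TFEB in the cytoplasm, rose by 1.05 on the log2 scale. Neither the amount nor the location of these proteins was measured.

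Promoters of the lysosomal genes were searched for the letters of the TFEB family's binding motif. RefSeq promoter sequence (GRCm38.p6, 250 bases before to 50 after the start) was matched by symbol for 27 of the 30, and *Ctsb*, *Ctsh* and *Asah1* were not matched. The motif CACGTG, an E-box that reads the same on both strands, was found in 11 of the 27, or 40.7%, beside 8.09% of 27025 genes with a promoter and 10.8% of those tested here. The longer TCACGTGA, which contains it and is also its own reverse complement, was found in 5 of the 27 (*Cln3*, *Ctsa*, *Ctsd*, *Gla* and *Mcoln1*), or 18.5%, beside 1.12% of all genes and 1.95% of those tested. Many lysosomal genes are known TFEB targets, so such shares belong to the list of genes and say nothing of the inhibitor. Among all genes called higher, CACGTG was found in 10.2%. Of the 11 genes with CACGTG, 5 were higher, 2 lower and 4 did not pass, with a median log2 fold change of 0.10. Of the 16 without it 12 were higher, 1 was lower and 3 did not pass, with a median of 0.41. Over all genes tested, 31.5% were higher and 32.3% lower. The difference between the 11 and the 16 genes was not tested. A match of letters is no evidence of binding, and other motifs were not searched.

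The following stretches are shown because they hold the motif before a RefSeq start of genes that rose (*Lamp1*, *Glb1*, *Lgmn* and *Ctsd*), of one that fell (*Gaa*) and of one that did not pass (*Mcoln1*). They are cut to bases before the RefSeq start that lie in no annotated exon, each is read 5′ to 3′ along the gene, and capitals mark CACGTG. The *Lgmn* stretch lies before a RefSeq start but inside the gene as GENCODE M21 annotates it (chr12:102394084-102439813). The longer TCACGTGA of *Ctsd* and of *Mcoln1*, at positions -99 and -46 from the RefSeq start, lies outside the stretches shown. *Lamp1* (chr8:13159080-13159160, + strand) has 4 copies within 81 bases that end at the base before the start. *Glb1* (chr9:114401010-114401055, + strand), *Lgmn* (chr12:102439116-102439161, − strand), *Ctsd* (chr7:142388047-142388077, − strand), *Gaa* (chr11:119267803-119267848, + strand) and *Mcoln1* (chr8:3500428-3500456, + strand) have 1 copy each in the stretch shown.
Lamp1: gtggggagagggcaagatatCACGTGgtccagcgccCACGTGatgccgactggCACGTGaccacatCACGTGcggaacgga
Glb1: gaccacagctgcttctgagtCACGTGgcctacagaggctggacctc
Lgmn: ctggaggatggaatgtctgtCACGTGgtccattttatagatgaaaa
Ctsd: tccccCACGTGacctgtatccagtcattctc
Gaa: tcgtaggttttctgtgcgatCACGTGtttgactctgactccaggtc
Mcoln1: ttagaaagggtcgcgcttgtCACGTGttc

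The 30 genes are spread over 15 chromosomes, with 2 on the X chromosome and at most 5 on any chromosome. In the GENCODE M21 annotation of GRCm38 the exons of 11 of the 30 overlap exons of another gene, 8 of them on the opposite strand alone and 3 on the same strand. *Ctsd* shares 808 bases of exon with *Gm49369* and *Glb1* shares 165 with *Tmppe* on the same strand, and *Ctsl* overlaps *Gm49230*. On the opposite strand, the exons of *Ctsa* overlap 819 bases and those of *Ctsb* 774 bases of other genes. How the authors' counting divided such reads, and whether it used the strand, is not given in the sources used here, so the values of all 11 genes are less certain than those of genes with exons of their own.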

How the data were processed

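RNA-seq of splenic CD4+ T cells, 3 libraries per group, was used, with groups from the sample labels. For replicates 2 and 3 the authors deposited raw counts per gene, and the submitters' processing notes list fastp 0.21.0, HISAT2 2.1.0, StringTie 2.1.5 and DESeq2 1.30.1 with build mm10, without their roles. For the replicate 1 pair the authors deposited values that are read here as FPKM, by inference from the values, since the unit is not named. FastQC and HISAT2 are listed for it. The strand setting and annotation are not given in the sources used here.

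The count table was tested with edgeR 4.0.16 (R 4.3.3), using filterByExpr (minimum count 10, minimum total 15), TMM and the quasi-likelihood test, adjusted by Benjamini-Hochberg over all genes tested, 2 libraries against 2 without covariates. The fit was tested on simulated data. Standard errors are the absolute log2 fold change over the square root of F. The replicate 1 pair is given as log2 ratios with a pseudocount of 1, which understate changes of low genes, and was fitted in no test, since it is not counts. The 2 libraries of each group with counts differed beyond sampling noise (mean chi-square per gene 3.08 for DMSO and 9.60 for the inhibitor). CPM per kb used the merged length of all exons of a gene in GENCODE M21, which can exceed the length of its mRNA.

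All lysosomal genes were named. Values in every library are given for the 6 largest rises and all falls with an adjusted p under 0.05, for *Lamp1* and *Lamp2*, and for genes called in replicates 2 and 3 that moved the other way by over 0.2 log2 in the pair, and beyond this rule for other genes chosen after their values were seen (*Mcoln1*, *Ctsd*, *Tpp1*, *Ctsl*). From each further list the 2 genes with the smallest p are named, from each marker list the gene with most counts. Genes named to spell out a small count (such as *Flcn*, *Rragc*, *Rragd*, *Zkscan3* and *Cstb*) were chosen after their values were seen. The genes and lists were chosen with earlier results of these data known. *Ighm* and *Ighd* of the B cell list were not analysed here. The alternatives were RLE, upper-quartile and library-total scaling, other filters, a replicate block, DESeq2 1.42.0, each library left out, a 1.5-fold threshold, and for the pair a pseudocount of 0.1 and a minimum of 1 FPKM.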

Additional observations from a re-analysis of the deposited data

How the results depend on the processing

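The count of lysosomal genes called higher was 20 with RLE scaling, without a filter on low counts, with a replicate block and with DESeq2, and in each of these fits the same 20 genes remained called. It was 21, with *Tpp1* added, with upper-quartile scaling, with library totals and with at least 10 counts in every library. Leaving out each library in turn gave 17 to 21 higher and 2 to 4 lower, with the lone library of a group assumed to vary like the other group; *Lamp2*, *Ppt1*, *Grn* and *Ctsa* lost their calls in some of these fits and *Gusb* was called lower without inhibitor replicate 3. A 1.5-fold threshold left 11 higher, 1 lower and 6499 genes in all, since it removes smaller changes.

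The median log2 fold change of 0.49 was 0.57 with upper-quartile scaling and 0.61 with library totals, which moved the median of all genes by 0.080 and 0.13, so that the distance between these medians stayed at 0.48. That distance was 0.33 without a filter and with DESeq2, where more genes of low counts enter the median of all genes, and 0.54 with at least 10 counts in every library. The median of the lysosomal genes was 0.42 to 0.48 with a library left out.

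With the replicate number as a block, 10645 genes were called and 20 and 3 lysosomal genes were higher and lower, so the block changed no call among the 30. Same-numbered libraries did not deviate together (correlation -0.0064), and 2 pairs cannot show a pairing.

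Genes that did not pass turned sign near 0, and the cause was not tested beyond the scaling itself. *Mcoln1* was at 0.0026 with RLE, 0.069 with the upper quartile, 0.11 with library totals and 0.034 with at least 10 counts, and between -0.083 and 0.050 with a library left out. *Neu1* was at 0.066, 0.11 and 0.030 with the latter 3 settings and between -0.064 and 0.012 with a library left out. With the upper quartile and library totals *Ctsl* was at 0.015 and 0.059 and *Naglu* at 0.00021 and 0.045. With library totals *Gusb* was at 0.022 and *Tfe3* at 0.015. With a library left out *Ctsl* ran from -0.23 to 0.091, *Gla* from -0.092 to 0.30 and *Gusb* from -0.23 to 0.012. Over the 7 further lists, 60 genes were higher and 20 lower with library totals, 59 and 22 with the upper quartile, 48 and 22 with DESeq2, and 41 to 55 and 20 to 29 with a library left out, beside 52 and 28; with library totals all genes split into 6176 higher and 4302 lower. Small counts also moved: cathepsin inhibitors called higher went from 2 to 1 without a filter, with DESeq2 and without either DMSO library, proton pump subunits called higher from 6 to 3 without DMSO replicate 2, other membrane proteins called lower from 4 to 2 with library totals or without DMSO replicate 3, fusion and positioning genes called lower from 2 to 1 with library totals or without either DMSO library, macrophage markers called higher from 5 to 3 with at least 10 counts in every library, where fewer could be tested, CD8 T and NK cell markers called lower from 2 to 1 with DESeq2, and neutrophil markers called higher from 1 to 0 with DESeq2 and with at least 10 counts in every library. Neutrophil markers called lower went from 0 to 1 without a filter on low counts. The median of the replicate 1 pair was 0.54 with a pseudocount of 0.1.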
